A study of Xenopus tropicalis with 12 samples.

Results

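Parvalbumin (pvalb), muscle AMP deaminase (ampd1), mss51, synemin (synm) and lrrc14b are 5 genes tied to skeletal muscle whose signal was lower in frog embryos exposed to naphthenic acids than in control embryos. They were chosen from that very difference, so their values against control are given below as a description. Counts of calls among them, from the fit over all probes, are given too, also with arrays left out or other settings. The choice of genes favours those counts in advance, so they are no test of these genes. All probes that carry a RefSeq transcript of these genes were taken, which gave 5 probes, 1 per gene, of 32899 on the array. All 5 were well above background on every array and were among the 29168 probes tested.

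Whole embryos of Xenopus tropicalis, the western clawed frog, were sampled 3 days post fertilization. Total RNA was labelled with Cy3 and hybridised to 12 single-colour Agilent arrays, 1 sample per array. There were 4 arrays each of control embryos, of embryos given naphthenic acid mixture S1 and of embryos given mixture S2, the mixtures being different batches of 1 commercial product. Naphthenic acids are carboxylic acids from petroleum. Dose, length of exposure, strain and the number of embryos per sample are not given in the sources used here. Nothing in the labels says that the replicates came from separate cultures, so p-values measure the spread between these samples, which may be technical.

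Skeletal muscle shortens when calcium released from the sarcoplasmic reticulum lets myosin pull on actin, and it relaxes when calcium is bound and pumped back. Parvalbumin binds calcium in fast fibres and speeds relaxation. AMP deaminase works in the purine nucleotide cycle when ATP is spent quickly, and synemin helps to fasten the contractile apparatus to the cell membrane. In a tadpole of this stage most skeletal muscle lies in the somites of the trunk and tail, which it uses to swim. None of this is measured here, and no value below shows in which tissue of the embryo the transcripts were made.

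The arrays differed in ways that touch these values. The 75th percentile of the processed signal was 499.5 to 985 on the control arrays, 261 to 537 on the S1 arrays and 481 to 675 on the S2 arrays, so the exposed groups were dimmer on average, S1 above all, while their ranges overlapped that of the controls. Control replicate 3, S1 replicate 4 and S2 replicate 4 stood apart from the rest of their groups in a principal component analysis, and all 3 lay on the same slide, with control replicate 4. Each of the 3 slides held arrays of every group. Values below are log2 signals relative to the array's own 75th percentile, so 0 is that percentile and a difference of -1 between groups is a halving. A level on this scale cannot be set against the level of another probe. The median over all tested probes was -0.02 for S1 minus control and -0.04 for S2 minus control.

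Taken as a set, the 5 genes had a median difference from control of -0.72 in S1 (-0.80 to -0.58 over the genes) and of -0.95 in S2 (-1.10 to -0.80). In the fit over all probes (limma, Benjamini-Hochberg adjusted p under 0.05), 1 of the 5, synm, was lower in S1, beside 0.703% of all tested probes, and 5 of 5 were lower in S2, beside 2.63%. All 4 exposed arrays lay below all 4 control arrays for 2 of the 5 genes in S1, ampd1 and synm, and for 5 of 5 in S2. Over all tested probes this held for 4.95% and 8.3%. The genes were picked on these comparisons, so nothing is read from these counts. The counts of calls also moved with the fit. In S2 it was 3 of 5 without control replicate 1, 3 or 4 or S2 replicate 1, 2 or 3. In those fits 410, 259, 348, 229, 232 and 378 of all tested probes were lower, in that order, beside 766 in the main fit. The count of the 5 was also 3 with scaling to the array median. It was 4 of 5 without any 1 of the other arrays, with slide or replicate number as a block, or with quantile normalization. Over all tested probes, 607 to 904 were lower in S2 without 1 of those arrays, 510 with slide and 586 with replicate number. For S1 the count of the 5 was 2 without control replicate 2, S1 replicate 2 or S1 replicate 3, and with scaling to the array median. Without those arrays in turn, 80, 262 and 74 of all tested probes were lower in S1. With quantile normalization, the deposited log2 values or a trended robust prior, the count of the 5 was 3 in S1. It was also 3 with only probes well above background on all 12 arrays. The deposited values had 286 of all tested probes lower in S1, the trended prior 336 and the stricter filter 286 of 26206. With array brightness as a covariate the count of the 5 was 0 in S1, where 81 of all tested probes were lower. In S2 it was then 5, where 1039 were lower. When local backgrounds were subtracted as measured, with normexp and an offset of 50 units, the count of the 5 was 0 in both mixtures. In that setting 1 of all 29168 tested probes was lower in S1 and 2 in S2. The counts over all probes were 133 in S1 and 465 in S2 with scaling to the array median. They were 286 and 679 with quantile normalization. Nothing is read from the counts of the 5 in these settings. In RNA of whole embryos, fewer muscle cells and less of a transcript per cell cannot be told apart.

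**Figure D1:**
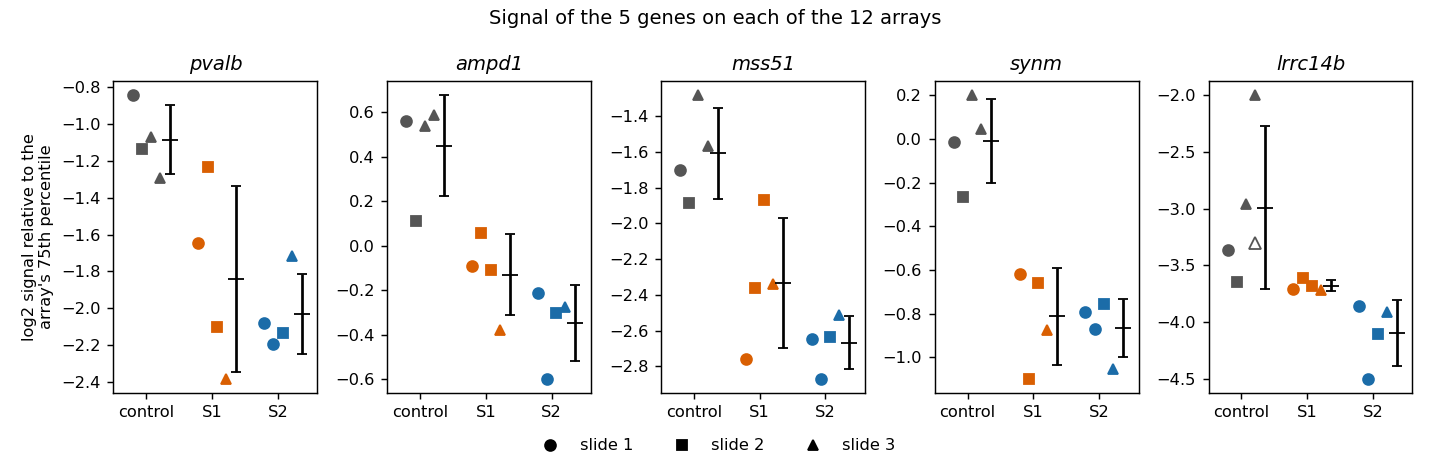
Log2 signal relative to the array's 75th percentile for the 5 genes in control, S1 and S2 embryos, 1 point per array with the slide as its shape, and a bar for mean and SD (n = 4). The S2 arrays lie below every control array in each panel, while 1 S1 array reaches the control range for pvalb, mss51 and lrrc14b, and the open triangle for lrrc14b is control replicate 4 without 1 spot that had an outlying local background.

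Parvalbumin is the calcium buffer of the group (pvalb, NCBI gene ID 100486372). It is an EF-hand protein of fast muscle fibres and, in vertebrates, also of some neurons. On control replicates 1 to 4 its signal was -0.84, -1.14, -1.07 and -1.29. S1 replicates 1 to 4 gave -1.64, -1.23, -2.10 and -2.38, and S2 replicates 1 to 4 gave -2.08, -2.19, -2.14 and -1.71. S1 replicate 2 lay inside the control range and the other S1 arrays below it, while all S2 arrays lay below it. The mean was -1.08 ± 0.19 (SD, n = 4) in control, -1.84 ± 0.51 in S1 and -2.03 ± 0.22 in S2. S1 was thus lower than control by a log2 difference of -0.76 (95% interval -1.23 to -0.28), a signal 40.8% lower, and S2 by -0.95 (-1.42 to -0.47), 48.1% lower. The S1 arrays were more than 2 log2 units below the percentile on 2 of 4 occasions and are the most scattered group of any of the 5 genes apart from the lrrc14b controls.

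The pvalb signal also went with the brightness of the array. Over the 12 arrays, after the group means were taken out, its correlation with the log2 75th percentile was 0.63, whereas the other 4 genes ran from -0.48 to 0.19. With brightness as a covariate the S1 difference of pvalb was -0.35 and the S2 difference -0.77. For the other genes the S1 difference in that fit ran from -1.11 to -0.51, with S1 and control differing in brightness by more than their SD (mean log2 percentile 8.68 ± 0.46 and 9.44 ± 0.47).

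Among the other EF-hand proteins listed with parvalbumin, 6 were tested under a symbol. In S2, s100z fell (-0.79 ± 0.14 SE, limma adjusted p = 0.0102), and in S1 it was at -0.46 with an adjusted p of 0.121. S100z codes for a small calcium-binding protein of the S100 family. Its signal was 2.40 to 2.59 on the control arrays and 1.44 to 1.96 on the S2 arrays, with no overlap. No other member of that list passed in either comparison, and ncs1, a neuronal calcium sensor, had -0.49 in S1 and -0.75 in S2 (adjusted p = 0.340 and 0.1003, limma). Calcium handling genes of muscle other than pvalb numbered 4 tested, and 0 passed in limma in either comparison, with 0 in S1 and 1 in S2 (srl) at an unadjusted p under 0.05. The calcium release channel ryr1 stood at -0.21 in S1 and -0.05 in S2 (limma adjusted p = 0.357 and 0.827).

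AMP deaminase of muscle (ampd1, NCBI gene ID 100488507) turns AMP into IMP in the purine nucleotide cycle. Its signal on control replicates 1 to 4 was 0.56, 0.11, 0.54 and 0.59. S1 replicates 1 to 4 read -0.09, 0.06, -0.11 and -0.38, and the S2 replicates read -0.21, -0.60, -0.30 and -0.28. No exposed array reached the control range, although S1 replicate 2 and control replicate 2 came close, at 0.06 and 0.11. The means were 0.45 ± 0.23 (SD, n = 4) in control, -0.13 ± 0.18 in S1 and -0.35 ± 0.17 in S2. S1 differed from control by -0.58 (95% interval -0.88 to -0.28), a 33.1% lower signal, and S2 by -0.80 (-1.10 to -0.49), 42.4% lower. These were the smallest differences of the 5 genes in both mixtures, unless 1 doubtful spot of lrrc14b, described below, is left out, when those of lrrc14b were smaller (-0.36 and -0.78).

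The purine nucleotide list held 3 other tested genes. One of them, ampd2, codes for another AMP deaminase, found in many tissues. It fell in S1 (-0.54 ± 0.12 SE, limma adjusted p = 0.0451) and was at -0.42 in S2 with an adjusted p of 0.0704. Its control arrays read 0.94 to 1.24 and its S1 arrays 0.25 to 0.75, again without overlap. That call was lost when any control array was left out, and also without S1 replicate 1, 2 or 3 or S2 replicate 1, 2 or 3, with adjusted p-values in limma of up to 0.115. The GMP synthetase gene gmps (0.20 and 0.18) and the adenylate kinase gene ak4 (0.12 and -0.03) did not pass in S1 or S2.

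The gene mss51 (NCBI gene ID 100496751) codes for a zinc finger protein that in mouse is found mainly in skeletal muscle, where it has been tied to energy metabolism. It was the 1 gene of the 5 with a single spot per array. Control replicates 1 to 4 gave -1.70, -1.89, -1.28 and -1.57. The S1 arrays gave -2.76, -2.36, -1.87 and -2.34, and the S2 arrays -2.65, -2.87, -2.64 and -2.51. S1 replicate 3 lay just above control replicate 2, and every S2 array lay below all controls. Group means were -1.61 ± 0.25 (SD, n = 4), -2.33 ± 0.36 and -2.67 ± 0.15 for control, S1 and S2. The difference from control was -0.72 in S1 (95% interval -1.12 to -0.33), 39.4% lower, and -1.06 in S2 (-1.45 to -0.66), 51.9% lower. With normexp, the local background as measured and an offset of 50 units, the differences were 0.018 in S1 and -0.28 in S2. In that setting the S1 median over all probes moved to 0.26. With outlying backgrounds replaced first the differences of mss51 were -0.42 and -0.75.

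Synemin (synm, NCBI gene ID 100486590) is an intermediate filament protein that joins desmin filaments to the costameres, the anchor points of the contractile apparatus at the membrane. In mammals it is also made outside skeletal muscle, in smooth muscle and some glia. It read -0.01, -0.27, 0.20 and 0.04 on control replicates 1 to 4. On the S1 arrays it read -0.62, -1.10, -0.66 and -0.87, and on the S2 arrays -0.79, -0.87, -0.75 and -1.05. The exposed arrays all lay below the controls, by a clear gap, and the mixtures covered the same range. Means were -0.01 ± 0.19 (SD, n = 4) in control, -0.81 ± 0.22 in S1 and -0.87 ± 0.13 in S2. The S1 difference was -0.80 (95% interval -1.09 to -0.51), 42.6% lower, and the S2 difference -0.86 (-1.15 to -0.56), 44.8% lower.

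Of 11 other intermediate filament genes tested, krt78.1 fell in both mixtures, by -1.85 ± 0.27 SE in S1 and -2.46 ± 0.27 in S2 (limma adjusted p = 0.00347 and 0.000283). It is a keratin gene, and keratins are filaments of epithelia. With array brightness as a covariate its S1 difference was -1.49 (limma adjusted p = 0.0821). On control arrays it read 0.12 to 0.73, against -1.81 to -1.10 in S1 and -2.63 to -1.54 in S2. A further keratin, krt78.3, measured by a probe named as cross-hybridising, fell in S2 (-0.52 ± 0.13 SE, limma adjusted p = 0.0364). That call was lost without control replicate 1, 3 or 4 or S2 replicate 1, 2 or 3, at adjusted p-values of up to 0.0995. Syncoilin (sync), a muscle filament protein, had -0.50 in S1 and -0.71 in S2 (limma adjusted p = 0.252 and 0.0738). The lens filament genes bfsp1 and bfsp2 had differences of -1.74 and -1.51 in S1, with limma adjusted p-values of 0.0843 and 0.0994. Not all of the list was lower, since nes (0.15 in S1 and 0.22 in S2) and lmnb2 (0.28 and 0.02) were above 0. The gene nefm was above 0 in S2 (0.09) and below it in S1 (-0.20). Over the 11 genes the median was -0.41 in S1 and -0.39 in S2. Below 0 were 9 in S1 and 8 in S2, beside 52.5% and 56.4% of all tested probes.

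The remaining gene, lrrc14b (NCBI gene ID 100488798), codes for a protein with leucine-rich repeats. Its processed signal was low, 19.8 to 180 in scanner units. Its control replicates 1 to 4 read -3.36, -3.65, -2.96 and -1.998. The S1 arrays read -3.71, -3.61, -3.68 and -3.72, and the S2 arrays -3.86, -4.50, -4.11 and -3.91. The S1 arrays sat close together at the lower edge of the controls, overlapping control replicate 2, and the S2 arrays lay below both groups. The difference from control was -0.69 in S1 (95% interval -1.31 to -0.07) and -1.10 in S2 (-1.72 to -0.48).

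The high value of control replicate 4 came from 1 spot. The probe has a pair of spots on each array, and on that array they read -0.69 and -3.31, a gap of 2.62. Around the bright spot the local background was 7734, against 28 around the other, and the median signal of the spot was 315 against 96.5. The scanner software had not marked it as an outlier. It was the only one of the 108 spot readings of the 5 genes with an outlying local background, a feature of 0.289% of spots over all arrays. For the other genes with a pair of spots, the median gap ran from 0.04 in pvalb to 0.13 in synm, and the largest was 0.37, in ampd1.

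**Figure D2:**
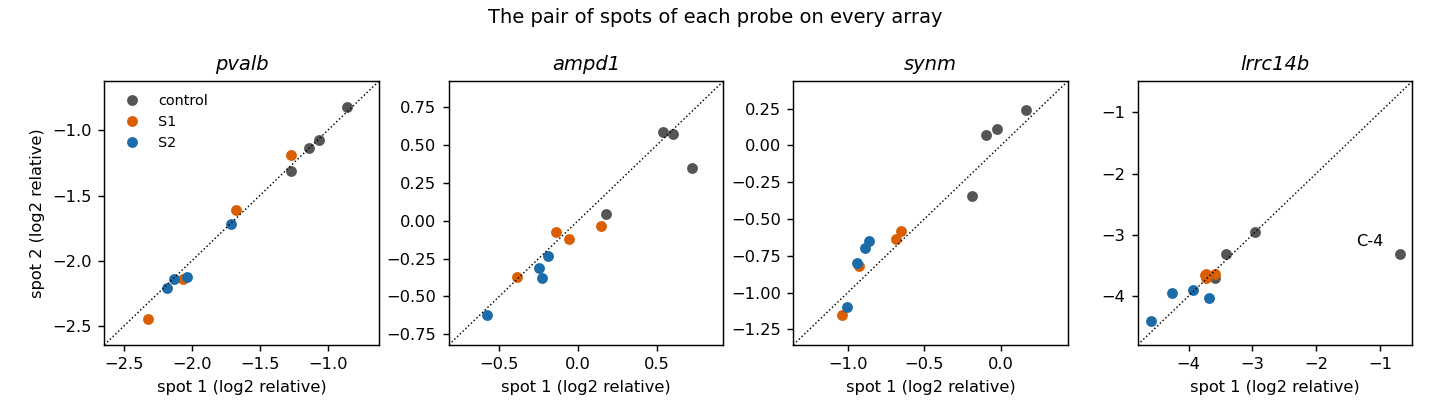
The log2 relative signal of the 2 spots of a probe against each other on each of the 12 arrays, for the 4 genes with a pair of spots, with the dotted line marking equal readings. All points lie near the line except lrrc14b on control replicate 4, where the spots read -0.69 and -3.31.

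Left without that spot, control replicate 4 read -3.31 for lrrc14b and the control mean was -3.32 ± 0.28 (SD, n = 4). The S1 difference was then -0.36 (95% interval -0.71 to -0.01), a signal 22.1% lower in place of 37.9%, and S1 replicate 2 lay inside the control range of -3.65 to -2.96, with the other S1 arrays just below it. With control replicate 4 left out altogether the differences were -0.36 and -0.77. The S2 difference was -0.78 (-1.13 to -0.43), 41.6% lower in place of 53.5%, and the S2 arrays still lay below all controls. This reading was chosen after the values were seen. With normexp and the backgrounds as measured, the lrrc14b differences were 0.75 in S1 and 0.36 in S2, above 0. With outlying backgrounds replaced first they were -0.011 and -0.39. Both settings kept the bright spot of control replicate 4, the first with its local background of 7734 subtracted. The part of that spot in these values was not tested.

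Other genes named for leucine-rich repeats numbered 4 tested, and 1 of them passed. In S1, lrrc52 fell (-0.74 ± 0.16 SE, limma adjusted p = 0.0397), with controls at -2.52 to -1.97 and S1 arrays at -3.40 to -2.68. The lrrc52 call was lost without any 1 of the control arrays, S1 replicate 1, 2 or 3 or S2 replicate 1, 2 or 3, at limma adjusted p-values of up to 0.101. With normexp and backgrounds as measured the difference was 0.28. With outlying backgrounds replaced first it was -0.10 (limma adjusted p = 0.637). The paralogue lrrc14 had 0.29 in S1 and 0.36 in S2 (limma adjusted p = 0.153 and 0.0586), the direction opposite to that of lrrc14b. These genes were grouped by a repeat in their names. Of them, lrrc2 (0.33 in S1 and 0.17 in S2, neither passing) was also on a muscle list.

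**Figure D3:**
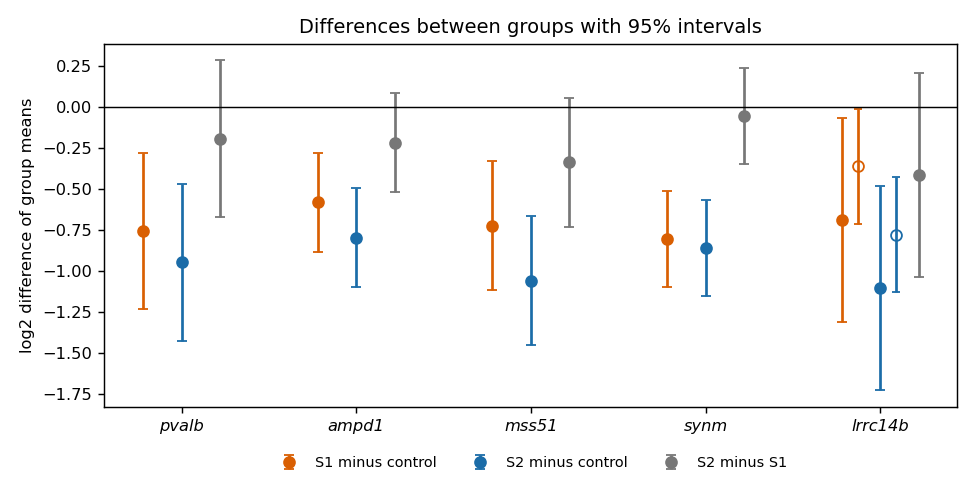
Differences of group means on the log2 scale with 95% intervals from the limma fit, for S1 minus control, S2 minus control and S2 minus S1, with open circles for lrrc14b without the spot of outlying background. The contrasts with control lie below 0 for all 5 genes, and every interval of S2 minus S1 spans 0.

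Mixtures S1 and S2 share their control arrays, so only their direct difference compares them. S2 minus S1 was -0.19 for pvalb (95% interval -0.67 to 0.29) and -0.22 for ampd1 (-0.52 to 0.09). It was -0.33 for mss51 (-0.73 to 0.06), -0.05 for synm (-0.35 to 0.24) and -0.42 for lrrc14b (-1.04 to 0.21). All 5 were below 0, as were 55.2% of all tested probes. For lrrc14b every S2 array lay below every S1 array, which held for 2.66% of all tested probes. Within slides the direction was less even. On slide 3 pvalb was higher in S2 than in S1 by 0.67 and ampd1 by 0.10. The only exposed arrays there were S1 replicate 4 and S2 replicate 4, which stood apart in the principal component analysis. Lrrc14b alone was lower in S2 on all 3 slides, beside 16.4% of all tested probes. All 5 intervals spanned 0, and the narrowest was that of synm. Over all probes, 0 passed in limma for S2 minus S1, with 2142 at an unadjusted p under 0.05.

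For all 5 genes both mixtures were below the controls of the same slide on each of the 3 slides, a pattern that 19.8% of all tested probes had for S1 and 21.6% for S2. The size varied by slide, and each group had few arrays on each slide. The median over the 5 genes in S1 was -0.65 on slide 1, -0.23 on slide 2 and -0.995 on slide 3, and in S2 it was -0.97, -0.49 and -1.09. Slide 2 gave the smallest S1 differences for pvalb (-0.53), ampd1 (-0.14), mss51 (-0.23) and lrrc14b (-0.0018), and control replicate 2, its 1 control array, was the lowest control for ampd1, mss51, synm and lrrc14b. On slide 3 the lrrc14b difference in S1 was -1.24, or -0.59 without the spot of outlying background.

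**Figure D4:**
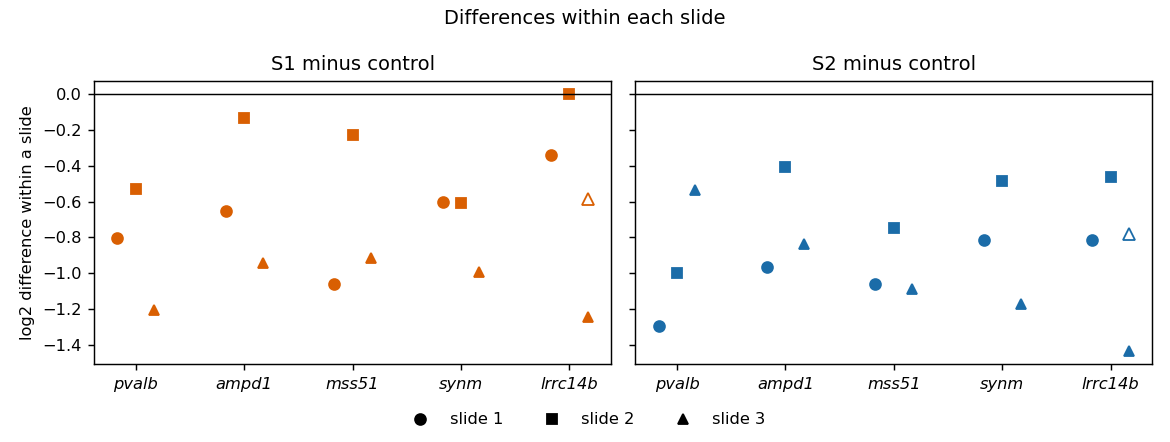
Log2 difference between exposed and control arrays of the same slide for each gene, S1 on the left and S2 on the right, with the slide as the shape of the point and an open triangle for lrrc14b on slide 3 without the spot of outlying background. All points are below 0, with lrrc14b in S1 on slide 2 the nearest to it at -0.0018.

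Each array could also be read over the 5 genes at once, as the median of their deviations from the control means. On control replicates 1 to 4 this median was -0.01, -0.28, 0.09 and 0.05. It was -0.61, -0.62, -0.65 and -0.83 on S1 replicates 1 to 4 and -0.87, -1.11, -1.03 and -0.90 on the S2 replicates. The groups did not overlap on this measure, which the choice of genes favours. All 5 genes were below the lowest control array on S1 replicates 1 and 4 and on all S2 arrays, 4 of the 5 were on S1 replicate 3, and 3 were on S1 replicate 2. The share of all tested probes below their lowest control was not taken for single arrays. The choice of genes favours these counts too, and nothing is read from them. Without control replicate 3, S1 replicate 4 and S2 replicate 4, the arrays that stood apart, the median difference from control was -0.61 in S1 and -1.0002 in S2. Limma then called 0 of the 5 in S1 and 4 in S2, beside 124 and 508 of all 29168 tested probes.

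Among themselves the 5 genes moved together across the groups and less evenly inside them. Over the 12 arrays the Pearson correlation of the 10 pairs ran from 0.58 to 0.87, with a median of 0.81. All points share the arrays and the group differences by which the genes were chosen. After the group means were removed it ran from -0.37 to 0.62, with a median of 0.26, and was above 0 in 7 pairs. Pvalb and synm had the lowest within-group value (-0.37), ampd1 and lrrc14b the highest (0.62, or 0.74 without the spot of outlying background). These correlations are a description of 12 arrays.

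Of 4371 other named genes, the 4 most like each of the 5 over the 12 arrays had Pearson correlations of 0.88 or more. Of these 20 places, 0 went to a gene of the muscle lists. Muscle-list genes other than the 5 were 56 of the 4372 named genes tested, so hardly any would be expected there. Nothing is read from that count. For pvalb the nearest were ankrd17 (0.95), shisa3 (0.94), tp53bp1 (0.94) and tnip2 (0.92). For ampd1 they were efemp1 (0.94), ppp1r32 (0.94), krt78.1 (0.92) and fstl1 (0.92). Among the nearest to mss51 were ppp1r32 (0.95), ppp4r4 (0.92) and pnmt (0.92), and the nearest to synm were tbc1d14 (0.92), lgi4 (0.91), adra1d (0.91) and dhrsx (0.91). Thus ppp1r32 stood near both ampd1 and mss51.

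For lrrc14b the nearest genes depended on the same spot. They were bend5 (0.91), wdr44 (0.88), klf15 (0.88) and znf177 (0.88) with it, and stk38 (0.94), tut4 (0.93), stk32a (0.93) and ulk4 (0.92) without it, with none shared. Within groups, slc26a11 led with 0.95 and dropped to 0.39 without the spot, and tcap, a gene of the Z disc, went from 0.85 to 0.40. Within groups the nearest to the others were robo4 for pvalb (0.93), sel1l3 for ampd1 (0.94), rgl2 for mss51 (0.94) and atg12 for synm (0.92). Among these 20 within-group places only tcap belonged to a muscle list, beside 56 of the 4372 named genes. The tcap probe was not named as specific.

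The rest of the muscle program was read from lists of 275 other genes, of which 61 were on the array under a symbol and 56 were tested. In S1, 2 of the 56 fell and 0 rose, and in S2, 3 fell and 0 rose (limma), which is 3.57% and 5.36% beside 0.892% and 3.02% falling among all 4372 named genes. The median difference of the 56 was -0.09 in S1 and -0.11 in S2, beside -0.03 and -0.05 over the named genes. Below 0 were 41 of the 56 in S1 and 43 in S2, beside 52.5% and 56.4% of all tested probes. The share below 0 among the named genes alone was not taken. Whether any of the shares given differ was not tested. On single arrays the median deviation of the 56 from control ran from -0.06 to 0.07 in control, -0.23 to -0.03 in S1 and -0.13 to -0.04 in S2. The 5 genes, chosen for their difference, had the medians per array given above.

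**Figure D5:**
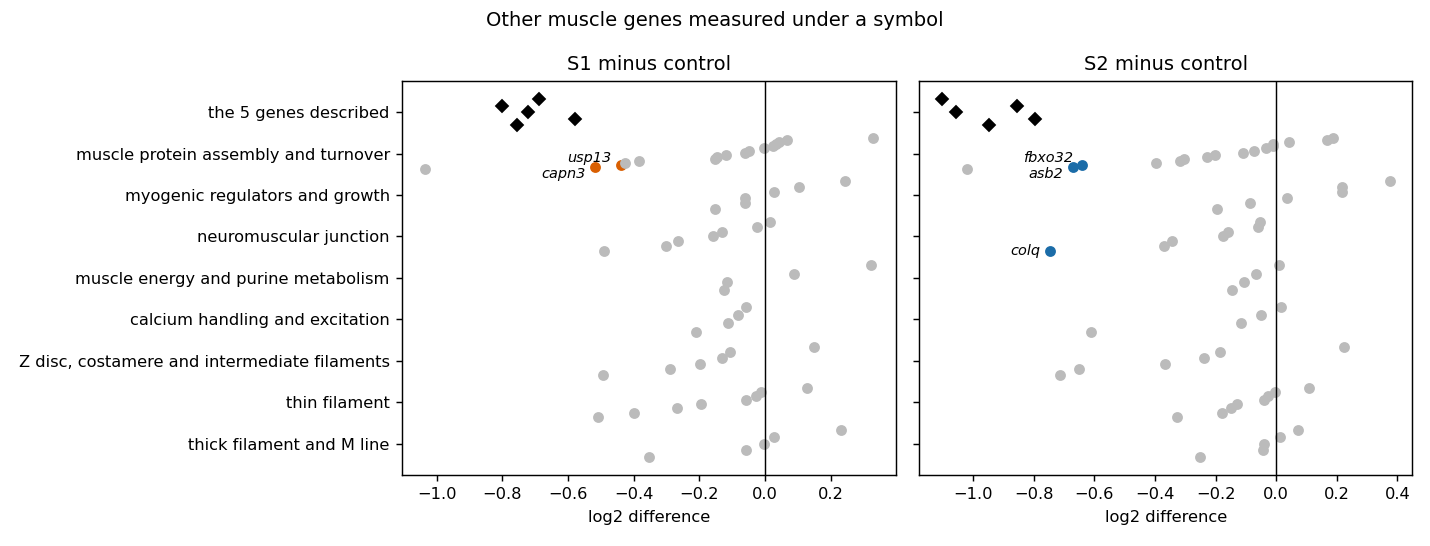
Log2 difference from control of 56 other muscle genes by list (circles, coloured and named where limma's adjusted p was under 0.05) and of the 5 genes described (black diamonds), for S1 on the left and S2 on the right. The circles that passed are capn3 and usp13 in S1 and asb2, fbxo32 and colq in S2, and the diamonds lie between -0.80 and -0.58 in S1 and between -1.10 and -0.80 in S2.

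The genes that fell came from the list of muscle protein assembly and turnover and from that of the nerve-muscle synapse. The former was the largest of the muscle lists, with 16 genes tested, of which 2 fell in each mixture. Of 7 tested genes of the latter, 0 fell in S1 and 1 in S2. No theme is read from so few calls. Those that fell in S1 were capn3, a calcium-activated protease of muscle (-0.52 ± 0.11 SE, limma adjusted p = 0.0362), and usp13, a deubiquitinase (-0.44 ± 0.09, adjusted p = 0.0371). Capn3 read 2.01 to 2.22 on control and 1.55 to 1.62 on S1 arrays, and usp13 read 0.57 to 0.70 and 0.03 to 0.41. In S2 they had -0.40 and -0.30 (limma adjusted p = 0.0596 and 0.0867). The capn3 call was lost without any 1 of the control or S1 arrays (limma adjusted p of up to 0.0944). The usp13 call was lost without any 1 array other than S1 replicate 3 and S2 replicate 4 (limma adjusted p of up to 0.0978).

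In S2 the genes that fell were asb2, fbxo32 and colq. Asb2 and fbxo32 code for parts of ubiquitin ligases of muscle, and colq for the collagen tail that holds acetylcholinesterase at the synapse. Asb2 had -0.67 ± 0.12 SE (limma adjusted p = 0.0121), with controls at -3.73 to -3.29 and S2 arrays at -4.27 to -4.12. Fbxo32 had -0.64 ± 0.16 (adjusted p = 0.0390) and colq -0.75 ± 0.16 (adjusted p = 0.0223, both limma). The fbxo32 call was lost without any 1 control or S2 array (up to 0.112), and that of colq without control replicate 3 or 4 or S2 replicate 1, 2 or 3 (up to 0.0727, limma adjusted p). With normexp and backgrounds as measured, asb2 stood at 0.16 and colq at 0.03, above 0, while the median of all probes moved to 0.15. With outlying backgrounds replaced first, asb2 stood at -0.09 and colq at -0.29 (limma adjusted p = 0.805 and 0.419). Fbxo32 was then at -0.52 (limma adjusted p = 0.0730), so these calls were lost in that setting too. In S1 the differences were -0.38 for asb2, -0.43 for fbxo32 and -0.49 for colq, with limma adjusted p-values of 0.135, 0.188 and 0.137.

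Fitted with slide as a block, the 5 genes had median differences of -0.70 in S1 and -0.98 in S2. Of the 5, 1 was called in S1 and 4 in S2, beside 180 and 510 of all 29168 tested probes. The limma adjusted p was then 0.0507 for capn3 and 0.0525 for usp13 in S1, 0.0763 for ampd2 and 0.0578 for lrrc52 in S1, and 0.0527 for krt78.3 in S2. The other calls on list genes were kept in that fit. With array brightness as a covariate, the limma adjusted p was 0.158 for capn3, 0.147 for usp13, 0.0962 for ampd2 and 0.120 for lrrc52 in S1, and 0.0549 for fbxo32 and 0.05003 for krt78.3 in S2. With 1 array left out at a time, the number of other muscle genes that fell ran from 0 to 3 in S1 and from 1 to 5 in S2.

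The contractile apparatus itself was measured by few named probes, and none of them passed. Of 5 tested genes of the thick filament and M line, the median was -0.0042 in S1 and -0.04 in S2, with 1 in S1 and 0 in S2 at an unadjusted p under 0.05. For 8 genes of the thin filament it was -0.13 and -0.08, with 2 and 1 at an unadjusted p under 0.05, and 0 of either list passed in limma. The genes myh6 of the former list and tnnt2 of the latter were also on the list of heart markers, so these lists are not of skeletal muscle alone. Nebulin (neb), the long ruler protein of the thin filament, had -0.27 in S1 and -0.18 in S2 (limma adjusted p = 0.335 and 0.474). Besides synm, 6 genes of the Z disc and costamere were tested and 0 passed, with medians of -0.16 and -0.30 and 1 and 2 at an unadjusted p under 0.05 (limma). Energy metabolism other than ampd1 (4 genes, medians -0.01 and -0.09) and myogenic regulators (6 genes, -0.02 and 0.13) had 0 passing in either mixture, with 0 of the former at an unadjusted p under 0.05 and 1 of the latter higher in each.

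Only 2 of 27 defining markers of skeletal muscle, neb and ryr1, were tested under a symbol, and 0 of the 2 passed. Their summed signal, in multiples of the 75th percentile, was 42.2 to 46.8 on control, 30.7 to 44.9 on S1 and 37.9 to 43.2 on S2 arrays, so the groups overlapped. The sum weights each probe by its brightness, and most of it was the neb probe (control mean 5.36 on the log2 scale, 2.01 for ryr1). It thus follows neb and says little of ryr1. These levels do not show which transcript was more abundant. With so few markers the amount of muscle in each sample cannot be judged from this array. Among markers of other tissues, 0 of 6 tested for heart, 0 of 2 for smooth muscle, 0 of 2 for neurons, 0 of 2 for notochord and cartilage and 0 of 1 for connective tissue passed in limma. At an unadjusted p under 0.05, 1 gene each for smooth muscle, neurons and cartilage was lower in S1, and 1 for neurons was lower in S2. The part of these tissues in the differences of the 5 genes was not tested.

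Genes that lie beside the 5 in the genome were looked up by order along the chromosome, a step added after the values were seen. Of 20 protein-coding neighbours, the nearest 4 to each gene, 3 were tested under a symbol and 0 passed in limma. Next to synm, igf1r had -0.21 in S1 and -0.14 in S2 and pgpep1l had -0.11 and -0.04. Near lrrc14b, lmnb2 had 0.28 and 0.02. No neighbour of pvalb, ampd1 or mss51 was tested under a symbol.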

How the data were processed

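Per the file headers, the authors read the 12 single-colour Cy3 arrays with Agilent Feature Extraction 11.0.1.1. The processed signal they deposited is a linear intensity per spot, corrected for background but not normalized between arrays. A table of log2 values was deposited as well. Each of its columns had a median of 6.88 over non-control spots and followed the quantile-normalized log2 signal of its own array (median gap at most 0.0029), in the same direction and without centring of probes. The sources used here do not say which tool made it. It served as an alternative.

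Here each intensity was put on the log2 scale, less the 75th percentile of its array (43803 non-control spots). Spots marked as outliers (295) were left out unless all spots of a probe were, and the rest averaged per probe. The fit took the 29168 probes that exceeded background clearly on 4 or more of 12 arrays. Groups were compared in 1 fit with limma 3.58.1 (R 4.3.3), with Benjamini-Hochberg adjusted p under 0.05 as the threshold, after the fit had been tested on simulated data. The number of arrays limits the precision, and the median half-width of the 95% intervals was 0.32. Fold differences are on the log2 scale. Figures were drawn with matplotlib 3.10.9.

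Symbols came through transcript accessions from RefSeq's genes of UCB_Xtro_10.0, an assembly newer than the array. Of the tested probes 4594 matched a symbol (4372 genes, each read from its brightest probe), 861 a placeholder and 23713 nothing. Besides krt78.3, the genes tcap, srl, ncs1, tnip2, bend5, wdr44 and stk38 were read from probes not named as specific. The array design names the build JGI 4.1, per the file headers, so no coordinates are given. Sequences are not used here.

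Groups and replicate numbers follow the labels. Slides follow the file headers. The 5 genes and the gene lists were chosen with earlier results of these data known. Named genes are the 5, the genes of the lists that passed in either comparison with control, a set of muscle and purine genes whatever their result where measured (here ryr1 and ampd2), and for each of the 5 the 4 most like it. Some of the genes this rule takes are not reported here. Other genes named from the lists (neb, ncs1, srl, gmps, ak4, sync, bfsp1, bfsp2, nes, lmnb2, nefm, lrrc14, lrrc2, myh6, tnnt2, and the neighbours) were chosen after their values were seen. Replicate numbers were checked as pairs and were not used as such. The alternatives were other background corrections, scalings, filters, blocks, a brightness covariate, array weights, another variance prior, and leaving out arrays. The planned normexp correction used the median spot signal, because mean signals are not used here, and added an offset of 50 units.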

Additional observations from a re-analysis of the deposited data

Results flagged for a closer look

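For ampd1, control replicate 2 read 0.11 on the log2 scale while the other control arrays read 0.54 to 0.59, a gap that takes up most of the range of that group. Of 15 groups of 4 arrays tested in this way, 3 for each of the 5 genes, it was the 1 that passed, and chance marks about 1 in 20 groups. The difference of ampd1 from control without that array was -0.69 in S1 and -0.91 in S2. The spots of ampd1 on that array had no outlying local background.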

How the results depend on the processing

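The median differences of the 5 genes (-0.72 in S1, -0.95 in S2) stayed below 0 in every alternative, and moved by more than the spread between replicates in 4 of 19 alternatives each. Subtracting local backgrounds as measured with normexp gave -0.15 and -0.35, and replacing outlying backgrounds first gave -0.49 and -0.72. Both settings also added an offset of 50 units to the corrected signals. That is not small beside a dim probe such as lrrc14b, with processed signals of 19.8 to 41.2 on the S1 arrays. The parts of the offset and of the subtraction were not separated. Both used median spot signals, a change made after the data were seen, as was leaving out spots with an outlying background (-0.72 and -0.86). Within slide 2 they were -0.23 and -0.49, and within slide 3 -0.995 and -1.09. With backgrounds as measured, mss51 in S1 (0.018), lrrc14b in S1 and S2 (0.75 and 0.36), lrrc52 in S1 (0.28), colq in S2 (0.028) and asb2 in S2 (0.16) lay above 0, while the median of all probes moved to 0.26 in S1 and 0.15 in S2 (0.16 and 0.08 with outlying backgrounds replaced). The lrrc14b values with normexp include the bright spot of control replicate 4. The causes were not tested.

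Probes lower in S1 numbered 205, and 1 with backgrounds as measured, 98 with outlying ones replaced, 133 with median scaling, 125 without the filter, 135 with the replicate block, 81 with brightness as a covariate, 336 with a trended robust prior, 124 without the 3 arrays that stood apart and 575 at an adjusted p under 0.1. Probes lower in S2 numbered 766, and in the same order of settings 2 and 252 with normexp, 465 with median scaling, 508 without the 3 arrays and 1521 at 0.1, besides 510 with slide as a block and 2291 with array weights. For S2 minus S1 the count of 0 became 1 with median scaling and with the trended prior, and 2 with the stricter filter and at 0.1. The 2 other muscle genes lower in S1 became 0 with backgrounds as measured, median scaling, slide block and replicate block, 1 with backgrounds replaced, brightness or without the 3 arrays, and 4 at 0.1. The 3 lower in S2 became 0 and 1 with normexp, 10 with array weights and 7 at 0.1.

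With 1 array left out at a time, the ranges were 74 to 262 and 229 to 904 probes, 0 to 1 for S2 minus S1, 0 to 3 and 1 to 5 muscle genes, and -0.82 to -0.68 and -1.05 to -0.84 for the 5 genes. Samples of the same replicate number deviated together weakly (12 correlations of -0.03 to 0.36, 8 over 0.1), and the main fit did not take the numbers as pairs. An array correlated best with its own number in 17 of 24 comparisons with another group, each with 4 arrays to match. Arrays of the same number thus resembled each other more often than not, and the labels do not say what a number stands for. All arrays numbered 1 lay on slide 1 and all numbered 4 on slide 3. Control and S1 replicate 2 shared slide 2, as did S1 and S2 replicate 3. Likeness by number therefore cannot be told apart from likeness by slide. The replicate block cannot move the differences of the 5 genes, since each number holds 1 array per group. With it, limma called 2 of the 5 in S1 in place of 1 and 4 in S2 in place of 5. Over all tested probes 135 were then lower in S1 in place of 205, and 586 in S2 in place of 766.

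The 4 arrays per group leave intervals with a median half-width of 0.32. Most tested probes carry no symbol, so muscle genes outside the named set were not read.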
